A study of Mus musculus with 6 samples.

Results

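The genes of cholesterol synthesis, uptake and efflux were followed in inguinal white adipose tissue, a subcutaneous fat depot, of mice whose adipocytes lack the IGF-1 receptor gene Igf1r and of control littermates. The set was chosen by name and holds 33 genes, all of which were among the 14861 genes of the deposited table and all of which passed the filter on low values. It was divided by role into 8 enzymes of the mevalonate and isoprenoid steps, 12 enzymes of the squalene and sterol steps, 6 genes of sterol sensing and control, and 7 genes of uptake, trafficking and efflux. Both groups carried floxed Igf1r (strain B6;129-Igf1rtm2Arge/J). In the knockout group, called AdIGF1RKO, this allele was combined with the transgene Adipoq-Cre, B6; FVB-Tg (Adipoq-Cre)1Evdr/J, whose adiponectin promoter drives the recombinase in adipocytes, so the other cells of the fat pad keep the gene. The controls, called Flox, were floxed littermates. All mice had 24 weeks of a normal chow diet with 10% of its energy from fat, and were fasted overnight and anesthetized with Avertin before the tissue was taken. Each group had 3 libraries of polyadenylated RNA, numbered 1 to 3 in the sample titles. Age and sex are not given in the labels used here, nor whether a library holds RNA of more than 1 mouse.

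Cholesterol is made from acetyl-CoA by way of mevalonate, farnesyl pyrophosphate, squalene and lanosterol. When sterols are scarce in the endoplasmic reticulum, the escort protein Scap carries the transcription factor SREBP2, encoded by Srebf2, to the Golgi, where it is cut and released to switch on the enzymes of this route. Insig proteins hold Scap back when sterols are plentiful. Oxysterols activate the liver X receptors, which raise the efflux transporters Abca1 and Abcg1. Adipocytes store much of the free cholesterol of the body in and around their lipid droplet.

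Between 60617147 and 70695527 reads per library were recovered from the table, and each member had between 202 and 24108 reads in a library. Values are given as scaled CPM, recovered reads relative to library size after median-ratio scaling, and are not divided by gene length, so levels are compared between libraries and not between genes. Igf1r had 6.44, 6.47 and 5.86 scaled CPM in Flox 1 to 3 and 6.11, 5.27 and 4.85 in AdIGF1RKO 1 to 3. The groups overlapped, at a log2 difference of -0.18 (95% interval -0.48 to 0.12, limma adjusted p = 0.998). The values cover the whole gene, and reads of the floxed exon were not analysed here. The 12 adipocyte markers took between 4.27% and 7.10% of the reads of a library. The 19 skeletal muscle markers took 12.5% in Flox 3 and 4.59% in AdIGF1RKO 3, and between 0.0421% and 0.871% in the other 4 libraries. In bulk tissue, fewer cells of a type and less RNA per cell cannot be told apart.

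None of the 33 cholesterol genes passed the limma test over all 12993 tested genes (smallest adjusted p = 0.998), and no other gene did, so the background of calls was 0.00%. Most of the enzymes of the pathway nevertheless had AdIGF1RKO means above the Flox means by small amounts. Of the 20 synthesis enzymes 17 had a log2 difference above 0 (10 with the values as deposited), with a median of 0.16, while 44.8% of all tested genes were above 0 and their median was -0.02. Of the 13 genes of sensing, uptake, trafficking and efflux 8 were above 0 (5 with the values as deposited), with a median of 0.09. The log2 differences were largest for Abcg1, a sterol efflux transporter, and for Hmgcs1, the enzyme that makes HMG-CoA. At an unadjusted limma p under 0.05 there were 3 members, Abcg1, Hmgcs1 and Sc5d, all with higher means in AdIGF1RKO. With the values as deposited Abcg1 alone was left, against 3.97% of all tested genes, and the p of Sc5d was 0.117. With median-ratio scaling the 3 were 9.09% of the members, against 2.96% of all tested genes in either direction and 1.83% in this direction. The groups did not overlap for 5 members, which are 15.2% of them, against 8.27% of all tested genes, or 4.41% with AdIGF1RKO on top. These 5 were Hmgcs1, Lss, Srebf2, Stard4 and Abcg1. With the replicate number as a block in the limma model, Soat1 joined the 3 members, and 4.48% of all genes had an unadjusted p under 0.05. On the recovered reads, the quasi-likelihood test of edgeR called 0.00% of genes at an adjusted p under 0.05, and DESeq2 called 0.177%, with no member among them (smallest adjusted p of a member 0.156, for Abcg1). At an unadjusted p under 0.05 there were 385 genes by limma, 380 by edgeR and 496 by DESeq2. The 95% intervals of the members reached between 0.20 and 0.87 to either side on the log2 scale. A difference smaller than the reach of its own gene could not be told from 0 with 3 libraries a group. For a single gene, the smallest two-sided p that an exact permutation test can reach with these groups is 0.1.

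**Figure D1:**
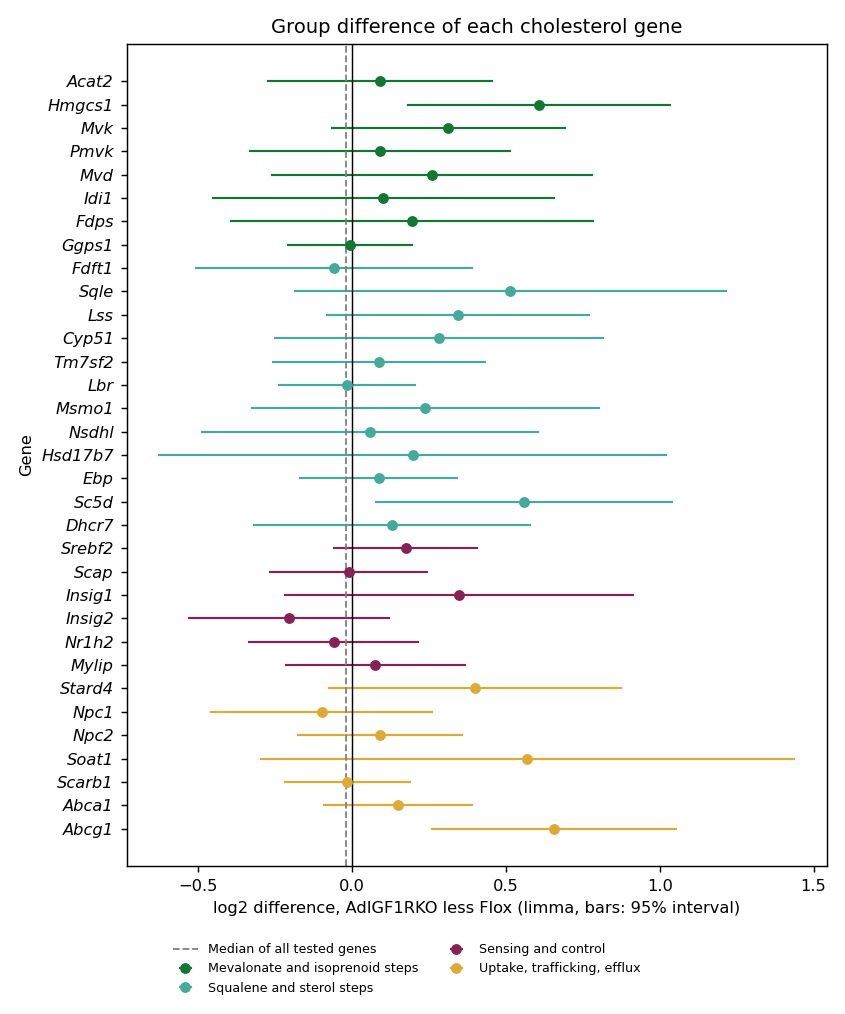
log2 difference of each of the 33 genes, AdIGF1RKO less Flox, on the log2(scaled CPM + 1) scale, with the 95% interval of the limma fit and the median of all tested genes as a dashed line. With median-ratio scaling the intervals of Hmgcs1, Sc5d and Abcg1 lie above 0, and those of the other 30 genes include it.

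The scaling of the libraries sets the zero of these counts. With the values as deposited the median of all tested genes was -0.17, and 10 of the 20 enzymes were above 0, but 18 were above that median. With all libraries scaled to equal sums the median of all genes was 0.09, all 20 enzymes were above 0, and 19 were above the median. With median-ratio scaling 19 enzymes were above the median of all genes as well. The distance of the enzymes' median from the median of all genes was 0.18 with median-ratio scaling, 0.17 as deposited and 0.18 with equal sums.

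The first steps join acetyl-CoA units and lead through mevalonate to farnesyl pyrophosphate. Hmgcs1 had 135, 103 and 129 scaled CPM in Flox 1 to 3 and 155, 178 and 232 in AdIGF1RKO 1 to 3. Every AdIGF1RKO library lay above every Flox library, with AdIGF1RKO 3 the highest. The group means were 122 ± 16.9 and 188 ± 39.6 (SD, n = 3 each), a ratio of 1.54. On the log2 scale the difference was 0.61 ± 0.18 (standard error, limma: unadjusted p = 0.0129, adjusted p = 0.998). It lay between 0.45 and 0.74 when each library was left out in turn, and the unadjusted p was 0.0423 or lower each time. With the values as deposited it was 0.45 (unadjusted p = 0.127).

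Mvk, mevalonate kinase, had 28.7, 23.9 and 25.5 scaled CPM in Flox and 25.9, 36.5 and 36.3 in AdIGF1RKO. AdIGF1RKO 2 and 3 lay above all Flox libraries, while AdIGF1RKO 1 lay within the Flox range. Its log2 difference was 0.31 (standard error 0.16). Mvd, the decarboxylase that makes isopentenyl pyrophosphate, showed the same arrangement, with 7.16, 5.69 and 6.26 in Flox and 5.37, 9.29 and 9.36 in AdIGF1RKO. In this enzyme AdIGF1RKO 1 was the lowest of the 6 libraries. Fdps, which makes farnesyl pyrophosphate, had 76.4, 53.5 and 76.0 in Flox and 57.3, 104 and 78.1 in AdIGF1RKO. The log2 differences of Acat2, the cytosolic thiolase at the head of the route, Pmvk, phosphomevalonate kinase, and Idi1, the isopentenyl pyrophosphate isomerase, were 0.09, 0.09 and 0.10. Without AdIGF1RKO 2 the differences of Acat2, Pmvk, Idi1 and Fdps were -0.038, -0.065, -0.069 and -0.017. Ggps1, which leads away from sterols to geranylgeranyl pyrophosphate, had means of 32.6 ± 1.32 and 32.4 ± 1.22, which differed by -0.01 on the log2 scale with a 95% interval from -0.21 to 0.20.

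The sequences before the start sites of these genes are shown because SREBP2 is known to act together with the factor NF-Y at closely spaced sites in such promoters. The windows come from RefSeq (build GRCm38.p6, matched by gene symbol, 250 bases before to 50 after each annotated start) and were available for 26 of the 33 genes. No window was used for Fdps, Fdft1, Sqle, Stard4, Npc1, Scarb1 or Abcg1. The 250 bases before the start are printed for Hmgcs1 and Mvk of the mevalonate steps, for Sc5d of the sterol steps, and for the efflux gene Abca1 as a contrast. Capitals mark the sterol regulatory element TCACNCCAC and the NF-Y box CCAAT, each on either strand, so that a box on the opposite strand reads ATTGG. The E-box CACGTG is left in lower case.
Hmgcs1, chr13:119690101-119690350, plus strand: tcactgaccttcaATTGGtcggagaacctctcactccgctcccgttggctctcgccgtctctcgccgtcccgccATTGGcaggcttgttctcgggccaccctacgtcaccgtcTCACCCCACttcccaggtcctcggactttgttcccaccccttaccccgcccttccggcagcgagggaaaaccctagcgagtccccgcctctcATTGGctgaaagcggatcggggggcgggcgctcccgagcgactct
Mvk, chr5:114444019-114444268, plus strand: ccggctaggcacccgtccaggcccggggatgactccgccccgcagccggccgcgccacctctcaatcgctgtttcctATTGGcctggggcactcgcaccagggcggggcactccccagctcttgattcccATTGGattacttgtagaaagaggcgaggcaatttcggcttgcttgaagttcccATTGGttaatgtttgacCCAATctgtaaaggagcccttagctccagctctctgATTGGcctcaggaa
Sc5d, chr9:42264301-42264550, minus strand: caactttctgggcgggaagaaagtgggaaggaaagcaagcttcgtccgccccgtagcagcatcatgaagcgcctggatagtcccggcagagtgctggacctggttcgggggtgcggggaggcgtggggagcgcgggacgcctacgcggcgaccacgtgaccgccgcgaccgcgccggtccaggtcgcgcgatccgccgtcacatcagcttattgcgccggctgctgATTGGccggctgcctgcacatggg
Abca1, chr4:53159896-53160145, minus strand: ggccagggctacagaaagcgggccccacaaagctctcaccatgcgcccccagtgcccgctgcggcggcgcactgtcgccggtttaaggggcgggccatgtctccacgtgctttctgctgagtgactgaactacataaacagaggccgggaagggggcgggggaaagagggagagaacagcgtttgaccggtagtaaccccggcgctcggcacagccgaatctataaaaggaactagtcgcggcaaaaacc

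The Hmgcs1 window held the sterol regulatory element with its first base 137 bases before the start. It held NF-Y boxes at 237, 176 and 45 bases before the start, all on the opposite strand. A further NF-Y box on that strand lay after the start, outside the printed bases. No base belonged to both kinds of motif. It was the only member window with that element in this spelling, which occurred in 1.24% of all 32851 windows. The Mvk window held 5 NF-Y boxes, the most among the members. The Sc5d window held 1 NF-Y box at 24 bases before the start, and the E-box CACGTG at 98 bases before it. The Abca1 window held no NF-Y box and an E-box at 147 bases before the start. At least 1 NF-Y box was found for 16 of the 17 synthesis enzymes with a window, Acat2 being the exception. That is 94.1% of them, against 41.1% of all 27025 genes with a window. For the sensing genes it was 4 of 6, and for uptake, trafficking and efflux 2 of 3. A gene with several windows counts here if any of them holds a box. Counted by window, a box stood in 16 of the 20 enzyme windows, or 80%, against 37.4% of all windows. The genes with a window were not limited to those of the deposited table. An E-box was found for 6 of the 26 members, or 23.1%, against 8.09% of all genes. The direct repeat element to which liver X receptors bind was found in 5 of all windows and in none of the members' in the strict spelling searched, with 2 AGGTCA half-sites and 4 bases between them. These matches describe the letters in the windows and are not evidence of binding in this tissue.

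**Figure D2:**
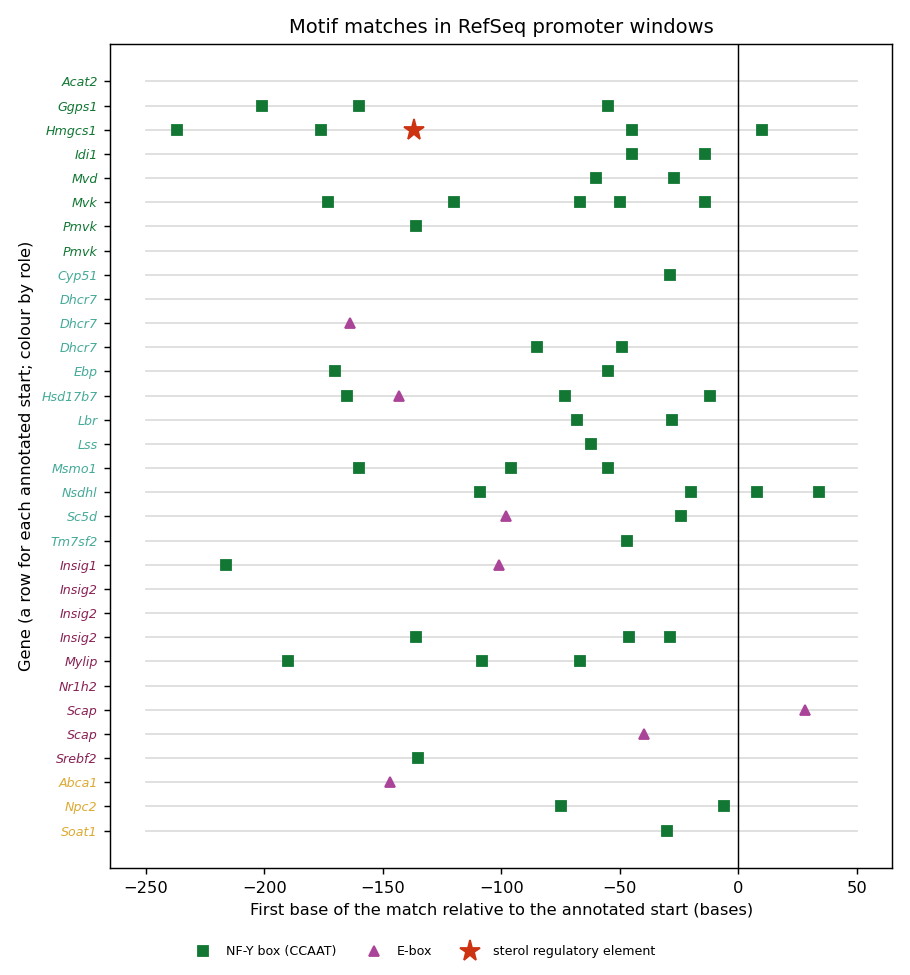
Position of each motif match relative to the annotated start, in bases, for each RefSeq window of the 26 members with one, with gene names coloured by role. NF-Y boxes stand in the windows of 16 of 17 synthesis enzymes, and the only sterol regulatory element is in that of Hmgcs1.

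From squalene onwards, AdIGF1RKO 2 and 3 were the highest libraries for 6 of the 12 enzymes. Sc5d, the sterol desaturase near the end of the route, had 84.0, 62.6 and 62.8 scaled CPM in Flox and 79.2, 126 and 107 in AdIGF1RKO. AdIGF1RKO 1 lay below Flox 1, and the other two knockout libraries lay above all Flox libraries. The means were 69.8 ± 12.3 and 104 ± 23.5 (SD, n = 3 each), a ratio of 1.49. On the log2 scale Sc5d differed by 0.56 ± 0.20 (standard error, limma: unadjusted p = 0.0297, adjusted p = 0.998). This lay between 0.41 and 0.74 with each library left out in turn, where the unadjusted p reached 0.0936. Sqle, squalene epoxidase and a rate-limiting enzyme of the sterol branch, had 15.7, 10.9 and 8.31 in Flox and 11.3, 19.1 and 20.7 in AdIGF1RKO. Flox 3 was its lowest library and AdIGF1RKO 3 its highest, and both are the libraries with the most skeletal muscle RNA of their group. The log2 difference of Sqle was 0.51 (standard error 0.29, unadjusted p = 0.126, adjusted p = 0.998). It was 0.16 without those 2 libraries, and between 0.31 and 0.77 with each library left out in turn.

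Lss, lanosterol synthase, had 8.87, 9.29 and 9.01 scaled CPM in Flox and 10.1, 15.7 and 10.2 in AdIGF1RKO. The groups did not overlap, with AdIGF1RKO 2 far above the other 5 libraries, and the log2 difference of 0.34 was 0.15 without that library. Cyp51, lanosterol demethylase, had 15.5, 11.2 and 11.8 in Flox and 11.3, 17.3 and 19.6 in AdIGF1RKO, and its log2 difference of 0.28 was 0.08 without Flox 3 and AdIGF1RKO 3. Msmo1, the methylsterol monooxygenase that acts after it, had 27.6, 24.0 and 17.2 in Flox and 19.9, 31.2 and 30.7 in AdIGF1RKO. Its log2 difference of 0.24 was -0.04 without both Flox 3 and AdIGF1RKO 3. In both enzymes AdIGF1RKO 1 lay within the Flox range.

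The other 7 sterol enzymes had log2 differences between -0.06 and 0.20. Hsd17b7, a sterol ketoreductase, had the highest of these and the fewest reads, with means of 5.20 ± 2.07 in Flox and 6.09 ± 2.19 in AdIGF1RKO. Fdft1, squalene synthase, had 30.6, 25.8 and 40.6 in Flox and 27.8, 28.3 and 35.9 in AdIGF1RKO, with Flox 3 and AdIGF1RKO 3 on top. Its log2 difference of -0.06 was 0.11 without Flox 3. The sterol reductases Tm7sf2 and Lbr, which catalyse the same step, had log2 differences of 0.09 (95% interval -0.26 to 0.44) and -0.02 (-0.24 to 0.21). Lbr also anchors lamins at the nuclear envelope. Dhcr7, the last reductase of the route, Ebp, a sterol isomerase, and Nsdhl, a sterol dehydrogenase, had log2 differences of 0.13, 0.09 and 0.06.

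**Figure D3:**
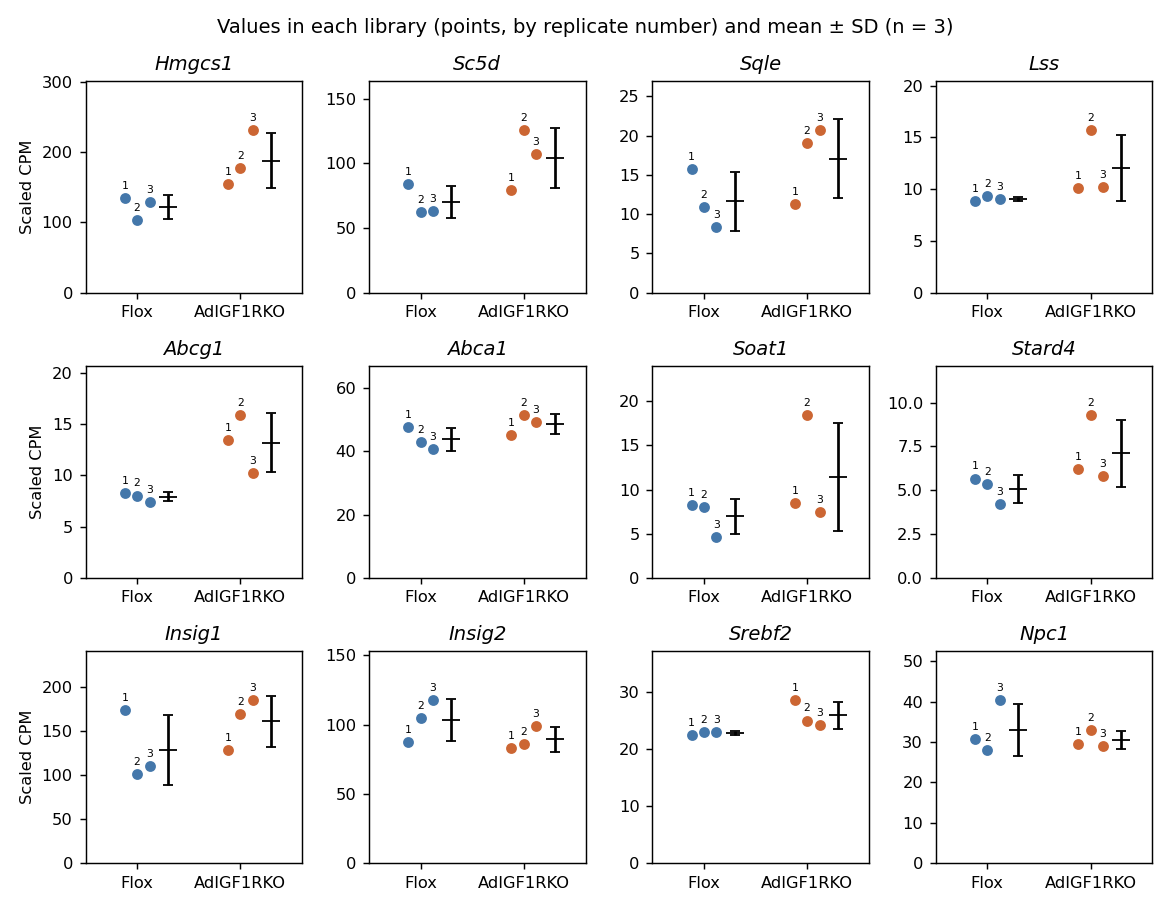
Scaled CPM of 12 of the genes in each library (points, labelled by replicate number) with the mean ± SD of each group (n = 3), each panel with an axis from 0. Hmgcs1, Lss, Srebf2, Stard4 and Abcg1 have no overlap between the groups, and Soat1 and Lss are set apart in AdIGF1RKO 2.

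Among the genes of sterol sensing, Srebf2 had 22.5, 23.0 and 23.0 scaled CPM in Flox and 28.6, 25.0 and 24.2 in AdIGF1RKO. The groups did not overlap, and AdIGF1RKO 1, where the enzymes were low, was its highest library. The difference was 0.17 ± 0.10 on the log2 scale (standard error, limma: unadjusted p = 0.121, adjusted p = 0.998). Insig1, the Insig gene that SREBPs themselves switch on, had 174, 102 and 110 in Flox and 129, 170 and 185 in AdIGF1RKO. Flox 2 was its lowest library and AdIGF1RKO 3 its highest, but Flox 1 lay above AdIGF1RKO 2. Insig2, its paralogue, had 87.4, 105 and 118 in Flox and 82.8, 85.8 and 99.3 in AdIGF1RKO. The log2 differences were 0.35 (95% interval -0.22 to 0.92) for Insig1 and -0.20 (-0.53 to 0.12) for Insig2, opposite in sign, and neither passed the test. That of Insig1 was 0.15 without Flox 3 and AdIGF1RKO 3. Whether they differ from each other was not tested.

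Scap, the escort of SREBP2, had means of 16.8 ± 0.631 and 16.7 ± 1.74, which differed by -0.01 on the log2 scale. Nr1h2, which encodes liver X receptor beta, had a log2 difference of -0.06 (95% interval -0.34 to 0.22). Mylip, a liver X receptor target that encodes a ubiquitin ligase, had 37.3 ± 3.28 and 39.4 ± 4.74, with a log2 difference of 0.07.

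Abcg1, which moves cholesterol out of cells to HDL, had the smallest unadjusted p of the 33 genes. It had 8.24, 8.03 and 7.40 scaled CPM in Flox and 13.5, 15.9 and 10.2 in AdIGF1RKO. All 3 knockout libraries lay above the narrow Flox range, AdIGF1RKO 1 included. The means were 7.89 ± 0.436 and 13.2 ± 2.84 (SD, n = 3 each), a ratio of 1.67. The difference was 0.66 ± 0.17 on the log2 scale (standard error, limma: unadjusted p = 0.00659, adjusted p = 0.998). It lay between 0.52 and 0.82 with each library left out in turn, and the unadjusted p was 0.0246 or lower. Each value rests on between 357 and 1123 reads. Abca1, the transporter that loads cholesterol on apolipoprotein A-I, had 47.8, 42.8 and 40.7 in Flox and 45.0, 51.5 and 49.3 in AdIGF1RKO. The groups overlapped, and its log2 difference was 0.15 (95% interval -0.10 to 0.39), while the interval of Abcg1 ran from 0.26 to 1.06. Whether the differences of Abca1 and Abcg1 differ was not tested.

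Soat1, which esterifies cholesterol for storage, had 8.24, 8.03 and 4.66 scaled CPM in Flox and 8.44, 18.5 and 7.41 in AdIGF1RKO. Its reads in Flox 1 and Flox 2 happened to equal those of Abcg1. AdIGF1RKO 2 was far above and Flox 3 below the other 4 libraries, and the log2 difference of 0.57 had an interval from -0.30 to 1.44. It was 0.19 without AdIGF1RKO 2 and 0.34 without Flox 3. The 8 markers of lipid-laden macrophages had means above those of Flox (median log2 difference 0.72). All 8 were highest in AdIGF1RKO 2. They summed to 1125 scaled CPM there, to between 604 and 663 in Flox, and to 658 and 627 in AdIGF1RKO 1 and 3. Cd63 and Cd9 made up most of these sums, and had 502 and 138 in AdIGF1RKO 2. In Flox they had 443 to 492 and 114 to 121. Spp1 had 182 in AdIGF1RKO 2 and between 9.23 and 12.8 in the other libraries. Mmp12 had 121 there and between 1.28 and 13.3 in the others, and Trem2 had 62.8 and between 6.04 and 12.1. The 12 general macrophage markers, 5 above and 7 below 0, summed to between 2021 and 3181 in Flox and to 2654, 3577 and 2318 in AdIGF1RKO 1 to 3. None of these markers was at 0 in any library, but the deposited table holds no value of 0 for any gene. The part of macrophages in the values of Soat1 was not tested. For Abcg1 the log2 difference was 0.52 without AdIGF1RKO 2.

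Stard4, a soluble sterol carrier that is itself an SREBP2 target, had 5.66, 5.33 and 4.19 scaled CPM in Flox and 6.20, 9.29 and 5.80 in AdIGF1RKO. The groups were separated by a small gap between Flox 1 and AdIGF1RKO 3. Its log2 difference was 0.40 (standard error 0.20), and 0.22 without AdIGF1RKO 2. Npc1 and Npc2, which export cholesterol from lysosomes as partners, had log2 differences of -0.10 (95% interval -0.46 to 0.26) and 0.09 (-0.18 to 0.36). Flox 3 was the highest library of Npc1, at 40.3 against 27.9 to 33.0 in the other 5, and without it the log2 difference was 0.05. Scarb1, the HDL receptor for selective uptake of cholesterol esters, had 88.8, 87.0 and 87.3 in Flox and 94.0, 82.5 and 84.3 in AdIGF1RKO. Its interval from -0.22 to 0.19 was among the narrowest of the set.

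Laid out by library, the enzymes did not divide by genotype. The median deviation of the 20 enzymes from their own 6-library means was -0.25 in AdIGF1RKO 1, against 0.35 and 0.20 in AdIGF1RKO 2 and 3. In Flox it was 0.00 in Flox 1, -0.26 in Flox 2 and -0.07 in Flox 3. AdIGF1RKO 1 and Flox 2 were thus alike, and each had 2 of 20 enzymes above their own mean, against 17 in AdIGF1RKO 2 and 16 in AdIGF1RKO 3. AdIGF1RKO 2 was the highest library for 11 enzymes and AdIGF1RKO 3 for 5, while Flox 2 was the lowest for 8 and AdIGF1RKO 1 for 6. Among all tested genes, the largest share of highest values was in Flox 3, with 3999 of 12993. AdIGF1RKO 2 was the highest library for 2580 of all tested genes and AdIGF1RKO 3 for 978. Flox 2 was the lowest for 1765 and AdIGF1RKO 1 for 2346. Acly, which makes cytosolic acetyl-CoA, was lowest in AdIGF1RKO 1 and Flox 2 as well, with 186 scaled CPM in AdIGF1RKO 1 and 194 in Flox 2. It had 881 in AdIGF1RKO 2 and between 307 and 423 in the other 3.

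**Figure D4:**
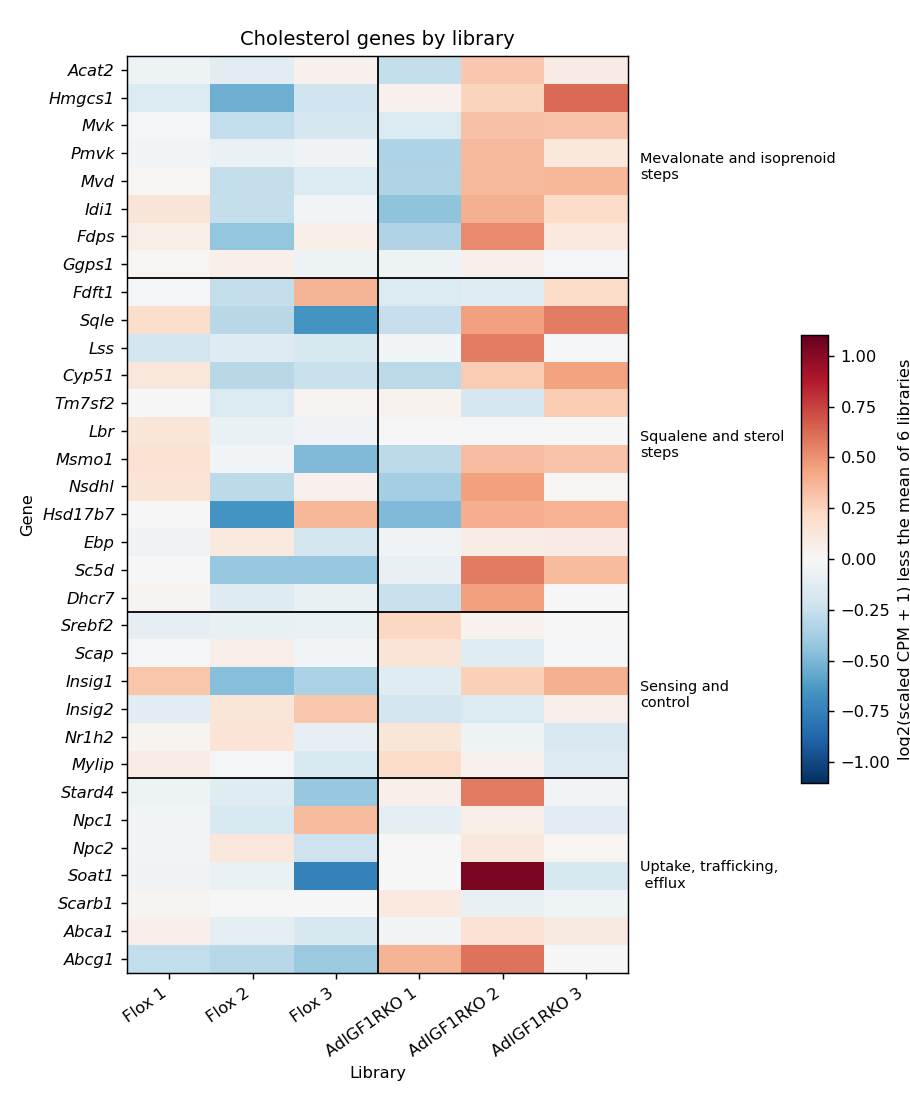
log2(scaled CPM + 1) of each gene in each library less the gene's mean over the 6 libraries, in the order of their roles, with red above and blue below the mean. The synthesis enzymes are mostly red in AdIGF1RKO 2 and AdIGF1RKO 3 and mostly blue in AdIGF1RKO 1 and Flox 2, while Abcg1 is blue in all 3 Flox libraries.

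The count of enzymes above 0 and their median rested on single libraries. Without AdIGF1RKO 1 the median was 0.38 with 19 of 20 above 0, and 7 enzymes had an unadjusted p under 0.05 (Hmgcs1, Mvk, Pmvk, Mvd, Sqle, Cyp51 and Sc5d), where 3.66% of all tested genes did. Without AdIGF1RKO 2 the median was 0.06 and 11 of 20 were above 0, of which 3 were among the 8 mevalonate enzymes. Without Flox 1 there were 5 members at an unadjusted p under 0.05, with Sqle and Insig1 added, against 2.36% of all tested genes. The median was 0.08 without Flox 2 and 0.10 without AdIGF1RKO 3. Without both muscle-rich libraries it was 0.11 with 15 of 20 above 0, and with the muscle markers as a covariate it was 0.21 with 18 above 0. Hmgcs1 and Abcg1 had an unadjusted p under 0.05 with each library left out, without both muscle-rich libraries and with the covariate, and in these no member passed after adjustment.

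Of 62 other genes of cholesterol handling, 58 were tested and 0 passed the limma test, edgeR or DESeq2, with 32 above 0 (9 with the values as deposited) and a median of 0.01. By role, 11 of 16 further genes of synthesis and its control and 9 of 10 of uptake and storage were above 0. So were 8 of 21 of transport, efflux and oxysterol formation, and 4 of 11 that use isoprenoids. Of the 10 uptake and storage genes, 7 were highest in AdIGF1RKO 2, and 3 were above their own mean in AdIGF1RKO 1. Among all 12993 tested genes these counts were 2580 and 6300. Cav1, the caveolin of the cholesterol-rich caveolae of adipocytes, had means of 1924 ± 348 and 2351 ± 101, at a log2 difference of 0.30 (95% interval -0.06 to 0.67). Every AdIGF1RKO library of Cav1 lay above every Flox library. Such a lack of overlap, in either direction, held for 4 of the 58 genes, or 6.90%, against 8.27% of all tested genes. Of the 9 endothelial markers 8 had AdIGF1RKO means above those of Flox (median log2 difference 0.19), and their sums were 568 to 662 scaled CPM in Flox and 663 to 794 in AdIGF1RKO. Cav1 is also expressed by endothelial cells, and their part in its values was not tested. Stard3, a sterol carrier of late endosomes, had a log2 difference of -0.14, with every AdIGF1RKO library below every Flox library. Srebf1 and Nr1h3, which encode SREBP1 and liver X receptor alpha, had log2 differences of 0.08 and 0.05, which were -0.086 and -0.12 with the values as deposited.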

How the data were processed

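RNA of 6 samples, 3 Flox and 3 AdIGF1RKO, grouped by their titles, was sequenced from stranded polyadenylated libraries, per the labels' protocols. The build GRCm39 is named in the submitters' processing notes. No aligner, counter, annotation or gene filter is given in the sources used here. The deposited signal, named FPKM by the authors, was not divided by length: within a tolerance of 0.5, 100% of values were whole reads times 1000000000 over 1 divisor per library (39206000 to 81802000). No value was 0 and the lowest was 1 read. The table is thus used as recovered reads, scaled by median-ratio factors (0.731 to 1.17). A read is worth 0.0130 to 0.0207 scaled CPM.

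The 12993 genes with a mean of 1 or more were tested (1868 left out) with limma 3.58.1 in R 4.3.3 on log2(value + 1) with a trend, two-sided, with Benjamini-Hochberg adjustment over all of them and a threshold of 0.05. This scale understates the change of low genes. The p-values of limma set a group difference against the spread between libraries within the groups, drawn toward the trend over all tested genes. The labels used here do not say whether that is a spread between mice or between pools. The step was tested on simulated data, with the same setting of spread for every gene and no muscle-rich library. That test does not show how the step performs on libraries as uneven as these. Alternatives were other scalings, pseudocounts and filters, each library left out, and both muscle-rich libraries (Flox 3 and AdIGF1RKO 3) left out together. Others were the muscle markers as a covariate, and edgeR 4.0.16 and DESeq2 1.42.0 on the recovered reads. The members and lists were chosen with earlier results of these data known, so no p is given for a list. Named genes are, per role, the 5 smallest p-values and paralogous pairs, and pathway genes with an unadjusted p under 0.05, with Srebf1 and Nr1h3; some genes this rule names are not reported here. Other pathway genes named, such as Cav1, Acly, Stard3, Msr1, Lipa, Nceh1 and Acss2, were chosen after their values were seen.

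The titles give both groups the replicate numbers 1 to 3, and the labels do not say what a number marks. Across genes, deviations from the group mean correlated between same-numbered libraries at 0.35, 0.35 and 0.83. All were above 0.1, so the numbers were treated as possible pairs. The 0.83 belongs to Flox 3 and AdIGF1RKO 3, the muscle-rich libraries. Flox 2 with AdIGF1RKO 1 reached 0.70 and Flox 1 with AdIGF1RKO 2 reached 0.33, so these correlations do not show that equal numbers mark pairs. The replicate block is given where it moved a count by over 1.5 times.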

Additional observations from a re-analysis of the deposited data

How the results depend on the processing

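No member was called under any alternative. The count of genes called was 23 with DESeq2 and 0 to 1 with each library left out (1, Aldh1a7, without Flox 1). With the values as deposited, 15 of 33 members, 10 of 20 synthesis enzymes and 9 of the other pathway genes were above 0, and the median of the sensing, uptake, trafficking and efflux genes was -0.072. That median was 0.22 with equal sums and 0.05 to 0.14 with each library left out. With each library left out, the enzymes above 0 numbered 11 to 19, the members above 0 numbered 21 to 27, the enzymes' median was 0.06 to 0.38, and the other pathway genes above 0 numbered 25 to 36. The genes at an unadjusted p under 0.05 numbered 242 to 475, and the members 2 to 8, with each library left out, and 1 member as deposited. With the replicate block (paired fit), 582 genes had an unadjusted p under 0.05 against 385 without it, 4 members against 3 (Soat1 added), and it changed no other call or direction among the members.

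Of the log2 differences given, these changed sign. As deposited: Abca1 -0.012, Acat2 -0.073, Dhcr7 -0.023, Ebp -0.074, Idi1 -0.059, Mylip -0.085, Npc2 -0.072, Nr1h3 -0.12, Nsdhl -0.10, Pmvk -0.071, Srebf1 -0.086 and Tm7sf2 -0.064. With equal sums: Fdft1 0.061, Ggps1 0.11, Lbr 0.10, Npc1 0.021, Nr1h2 0.061, Scap 0.10 and Scarb1 0.11. Without both Flox 3 and AdIGF1RKO 3: Ebp -0.016, Msmo1 -0.044, Npc1 0.085 and Scarb1 0.0019. With the muscle covariate: Fdft1 0.053. Lowest to highest with each library left out: Acat2 -0.038 to 0.24, Dhcr7 -0.063 to 0.29, Fdft1 -0.20 to 0.11, Fdps -0.017 to 0.41, Ggps1 -0.037 to 0.020, Hsd17b7 -0.080 to 0.49, Idi1 -0.069 to 0.35, Lbr -0.055 to 0.047, Lipa -0.027 to 0.51, Msr1 -0.25 to 0.63, Mylip -0.0068 to 0.16, Nceh1 -0.13 to 0.56, Npc1 -0.21 to 0.051, Nr1h2 -0.14 to 0.0098, Nr1h3 -0.061 to 0.13, Nsdhl -0.15 to 0.26, Pmvk -0.065 to 0.28, Scap -0.086 to 0.054, Scarb1 -0.072 to 0.021, Srebf1 -0.042 to 0.20 and Tm7sf2 -0.031 to 0.20. With the values as deposited and with equal sums the zero itself moved. The median of all tested genes was -0.17 and 0.09 there, against -0.02 with median-ratio scaling. The cause of the other sign changes was not tested. Intervals that reach 0.20 to 0.87 to either side on the log2 scale limit what 3 libraries a group can show.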

Other observations

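A few other genes of cholesterol handling were set apart in AdIGF1RKO 2. Msr1, a scavenger receptor of macrophages, had 21.6 scaled CPM there and between 5.69 and 8.88 in the other 5 libraries. Lipa, the lysosomal acid lipase, had 108 there and between 45.2 and 63.6 in the others. Nceh1, a cholesterol ester hydrolase, had 12.7 there and between 4.24 and 5.53 in the others. AdIGF1RKO 1 and 3 lay within the Flox range or just below it for these 3 genes, and their log2 differences of 0.31, 0.31 and 0.32 had intervals that include 0. Without AdIGF1RKO 2 the differences were -0.25, -0.027 and -0.13.

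Acss2, which makes acetyl-CoA from acetate, had 156, 94.2 and 171 scaled CPM in Flox 1 to 3 and 94.7, 245 and 136 in AdIGF1RKO 1 to 3. Flox 2 and AdIGF1RKO 1 were its lowest libraries and AdIGF1RKO 2 its highest, as for Acly. The genes of both paragraphs were picked with their values in view.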
